A study of Mus musculus with 10 samples.

Results

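The DLG scaffolds and their DLGAP partners were examined in sorted mouse microglia and in whole brain tissue, to see which of these genes microglia themselves transcribe. They comprise 9 of the 56748 genes counted, Dlg1 to Dlg5 and Dlgap1 to Dlgap4, chosen by gene symbol. Each symbol stood in a single row, and all 9 were among the 18969 genes with enough counts to test. The microglia group held 5 samples, each of 400000 CD11b+ cells sorted from brain, and the bulk brain group held 5 samples of hemi brains. All came from young C57BL/6 males with no treatment named and carry the same batch label, and whether each is from an animal of its own is not said in the labels. The p-values thus rest on sample-to-sample spread, part of which could be technical.

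DLG proteins are membrane-associated guanylate kinases (MAGUKs). They carry PDZ domains that hold receptors and channels by their tails, and a guanylate kinase-like domain that has lost its catalytic role and binds DLGAP proteins. DLGAP proteins in turn bind SHANK scaffolds, so that the chain links glutamate receptors to the cytoskeleton of the postsynaptic density of excitatory neurons. Dlg1 and Dlg5 are also known outside neurons, at cell junctions and in cell polarity.

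All 9 genes were lower in sorted microglia than in bulk brain, but the size of the difference ranged from 1.67-fold for Dlgap4 to 452-fold for Dlgap1. Which gene fell most depended on microglia replicate 2, without which Dlgap2 and Dlg2 (log2 differences of -10.08 and -9.22) lay below Dlgap1 (-9.07). It also depended on the bulk brain libraries, as Dlgap3 (-8.69) lay below Dlgap1 (-8.55) against bulk brain replicates 1 and 2 alone. Dlgap4, Dlg1 and Dlg3 kept 59.9%, 43.9% and 22.5% of their bulk brain level in microglia, and Dlg4 and Dlg5 kept 10.1% and 8.61%. Dlg2, Dlgap1, Dlgap2 and Dlgap3 kept 0.221% to 0.354%. All 9 passed the threshold in the lower direction (edgeR quasi-likelihood test, adjusted p under 0.05), where 43.9% of all genes tested did. In all 9 the groups did not overlap, with every microglia library below every bulk brain library, as for 40.5% of all genes tested, while 34.2% had every microglia library above. Sorted samples and tissue differ by design in the cells they hold. A lower level can thus come from a different make-up of cells or from less RNA per cell, which cannot be told apart here.

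The sequence around the start sites of these genes is shown to set the genes with a high and a low residue in microglia side by side. RefSeq windows of 300 bases, from 250 before to 50 after a start (GRCm38.p6, another build than that of the counts), matched 8 of the 9 genes with 17 windows. For 5 genes the window with the most CpG dinucleotides is printed 5′ to 3′ on the gene's strand, with CpG in capitals. The windows are chr2:156720715-156721014 for Dlgap4, chr16:31663685-31663984 for Dlg1, chr11:70023732-70024031 for Dlg4, chr7:91090536-91090835 for Dlg2 and chr4:127172630-127172929 for Dlgap3, all on the plus strand.
Dlgap4: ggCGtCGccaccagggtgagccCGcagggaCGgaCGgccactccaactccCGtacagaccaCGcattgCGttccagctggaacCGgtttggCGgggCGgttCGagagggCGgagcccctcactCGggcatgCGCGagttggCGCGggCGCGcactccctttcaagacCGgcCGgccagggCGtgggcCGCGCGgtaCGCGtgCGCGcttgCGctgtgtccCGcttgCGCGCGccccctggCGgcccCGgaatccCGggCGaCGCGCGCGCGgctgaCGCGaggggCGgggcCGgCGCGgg
Dlg1: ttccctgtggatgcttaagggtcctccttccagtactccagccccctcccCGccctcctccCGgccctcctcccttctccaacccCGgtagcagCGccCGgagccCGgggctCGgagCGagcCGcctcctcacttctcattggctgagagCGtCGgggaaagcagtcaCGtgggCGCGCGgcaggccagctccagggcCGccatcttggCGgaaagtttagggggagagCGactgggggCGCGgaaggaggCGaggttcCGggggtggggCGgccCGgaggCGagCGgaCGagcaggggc
Dlg4: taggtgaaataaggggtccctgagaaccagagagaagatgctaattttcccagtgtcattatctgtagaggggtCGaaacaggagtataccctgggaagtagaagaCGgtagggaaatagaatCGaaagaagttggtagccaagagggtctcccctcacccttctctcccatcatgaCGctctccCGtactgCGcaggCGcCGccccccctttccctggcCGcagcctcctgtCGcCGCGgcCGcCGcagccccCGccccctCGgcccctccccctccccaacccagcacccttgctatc
Dlg2: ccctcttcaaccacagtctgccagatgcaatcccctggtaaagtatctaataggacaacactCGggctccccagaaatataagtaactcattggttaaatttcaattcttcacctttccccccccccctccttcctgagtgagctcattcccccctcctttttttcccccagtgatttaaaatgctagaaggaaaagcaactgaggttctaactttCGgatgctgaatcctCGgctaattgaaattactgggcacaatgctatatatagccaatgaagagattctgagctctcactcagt
Dlgap3: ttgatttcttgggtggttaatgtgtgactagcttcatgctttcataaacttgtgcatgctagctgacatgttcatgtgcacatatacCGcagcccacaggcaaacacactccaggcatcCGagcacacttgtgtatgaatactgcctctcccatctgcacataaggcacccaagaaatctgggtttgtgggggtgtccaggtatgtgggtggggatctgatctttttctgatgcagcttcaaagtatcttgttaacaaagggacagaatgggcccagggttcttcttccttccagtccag
The Dlgap4 window held 50 CpG, more than 99.1% of all 32851 RefSeq windows, whose median was 7. The Dlg1 window held 27 and that of Dlg4 held 16, whereas the Dlg2 window held 3 and the Dlgap3 window 2. The first Dlg2 window begins at 91090536 and its deposited span at 90125880. For Dlg3 these starts are 100774245 and 99811328, and for Dlgap4 156720715 and 156455625. Windows and spans are on different builds and were not converted, so these gaps cannot be read as distances. The windows of any of these genes may leave out a start further upstream. Dlg3, Dlg5 and Dlgap1 had 28, 12 and 15 CpG in their richest window, so that Dlgap1, with a very low residue in microglia, held more than Dlg5. Searched on both strands, the GC box GGGCGG was in 35.7% of all windows and in 6 of the 17 windows here, those of Dlg1, Dlg3, Dlg4, Dlg5 and Dlgap4. The E-box CACGTG, in 7.15% of all windows, was in windows of Dlg1 and Dlgap1, and the PU.1-type ETS sequence GAGGAAGT, in 3.20% of all windows, was in a window of Dlg3. The cyclic AMP response element TGACGTCA, the ETS sequence CCGGAAGT and the REST half-site TTCAGCACC were in none of these windows and in 1.79%, 3.89% and 0.371% of all windows. These are matches of letters, noted with the levels known, and the counts do not show which start a cell used.

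The libraries held 25087489 to 28514509 counts in microglia and between 25845049 and 34709215 in bulk brain. Levels are in CPM, counts scaled to a common library total. A count of 0 allows up to 3 counts by counting error alone and with no molecular identifiers named. That is 0.0864 to 0.12 CPM depending on the library, by its unscaled total. The other CPM values use scaled totals (TMM), so this floor is approximate beside them. All 12 microglia markers were higher in the sorted cells, where 37.2% of all genes tested were, with Itgam, which encodes CD11b, at 498 ± 17.9 CPM (SD, n = 5) against 4.64 ± 1.24 CPM (n = 5), and P2ry12 at 3643 against 20.8 CPM. All 15 neuron, 10 astrocyte, 13 oligodendrocyte lineage and 9 endothelial and mural markers were lower, with Rbfox3 at 0.830 against 209 CPM, Gfap at 0.563 against 248 CPM, Mbp at 76.7 against 2664 CPM and Cldn5 at 6.84 against 48.6 CPM. Of 10 markers of other blood and border myeloid cells, which the CD11b sort can also take, 7 were tested and 6 were higher, with summed levels of 377 to 500 CPM against 9.02 to 9.83 CPM. Bulk brain replicates 1 and 2 stood apart from replicates 3 to 5: over the tested genes the root-mean-square difference in log2 CPM was 0.767 to 1.08 between the 2 sets, 0.631 between replicates 1 and 2 and 0.426 to 0.465 among replicates 3 to 5. Values against 1 of these sets alone are given for the genes and counts that moved most.

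Dlg4 encodes PSD-95, the most studied scaffold of the excitatory postsynaptic density (ENSMUSG00000020886, chromosome 11, 69907768 to 69938348, plus strand, GRCm39). It stood at 44.3, 51.5, 49.3, 49.4 and 53.2 CPM in microglia replicates 1 to 5, and at 501, 481, 477, 490 and 514 CPM in bulk brain replicates 1 to 5. Both groups were tight and lay far apart. The mean fell 9.95-fold, a log2 difference (microglia minus bulk brain) of -3.31 ± 0.09 (SE; edgeR adjusted p = 2.3e-11).

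Dlg2 encodes PSD-93, a synaptic scaffold closely related to PSD-95, and lies in a span of 1973 kb (ENSMUSG00000052572, chromosome 7, 90125880 to 92098455, plus strand). Its microglia levels were 0.714, 2.59, 0.385, 0.159 and 0.832 CPM, from 18, 67, 10, 4 and 20 counts. Its bulk brain levels were 188, 144, 400, 413 and 431 CPM. Replicate 2 was the highest of the microglia libraries, and replicates 1 and 2 were the lowest of bulk brain. The log2 difference was -8.38 ± 0.67 (SE; edgeR adjusted p = 2.3e-07). It was -9.22 without microglia replicate 2 and -7.55 against bulk brain replicates 1 and 2 alone, and -8.93 against replicates 3 to 5.

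Dlg3 encodes SAP102, a scaffold known for carrying NMDA receptors early in synapse development (ENSMUSG00000000881, chromosome X, 99811328 to 99862016, plus strand). It stood at 37.5, 42.8, 33.0, 30.3 and 42.0 CPM in microglia and at 161, 145, 174, 170 and 176 CPM in bulk brain. The mean fell 4.45-fold (log2 difference -2.15 ± 0.12 SE, edgeR adjusted p = 8.7e-09). No library of either group stood far from its fellows.

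Dlg1 encodes SAP97, a scaffold of epithelial junctions, of lymphocytes and of synapses (ENSMUSG00000022770, chromosome 16, 31482261 to 31693947, plus strand). It stood at 65.1, 77.1, 72.5, 71.4 and 73.0 CPM in microglia and at 147, 130, 180, 180 and 181 CPM in bulk brain. Microglia thus held a level of the same order as tissue, and the lowest bulk brain library was replicate 2. The mean fell 2.28-fold (log2 difference -1.19 ± 0.11 SE, edgeR adjusted p = 1.2e-06). The log2 difference was -1.49 against bulk brain replicates 3 to 5 and -1.03 against replicates 1 and 2 alone.

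Dlg5, the largest and most distant DLG protein, is known for cell adhesion and polarity (ENSMUSG00000021782, chromosome 14, 24184021 to 24295988, minus strand). It was the scarcest DLG gene in bulk brain, at 26.7, 19.5, 49.7, 52.9 and 54.9 CPM, against 5.12, 4.18, 3.23, 2.34 and 2.66 CPM in microglia. Replicates 1 and 2 were the lowest of bulk brain, below the other 3. The log2 difference was -3.53 ± 0.34 (SE; edgeR adjusted p = 1.4e-06), and it was -2.81 against bulk brain replicates 1 and 2 alone and -4.06 against replicates 3 to 5.

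**Figure D1:**
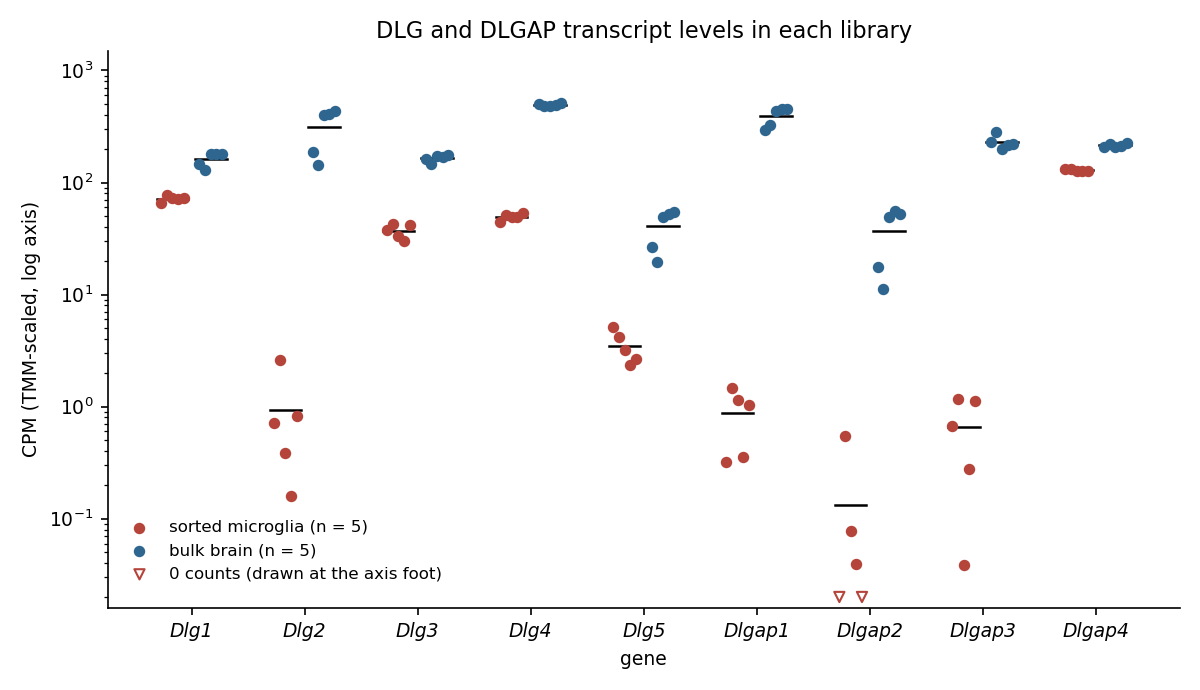
CPM of the 9 genes in each library on a log axis, with 5 sorted microglia and 5 bulk brain libraries per gene, lines at the group means, and open triangles for libraries with 0 counts. Dlgap4, Dlg1 and Dlg3 show the smallest gaps between the groups, and Dlg2, Dlgap1, Dlgap2 and Dlgap3 lie near or below 1 CPM in most microglia libraries.

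Among the DLGAP genes, Dlgap4 alone was abundant in microglia. It encodes SAPAP4, which is transcribed beyond the nervous system as well as in neurons (ENSMUSG00000061689, chromosome 2, 156455625 to 156606283, plus strand). It stood at 131, 133, 128, 127 and 126 CPM in microglia and at 209, 223, 208, 211 and 225 CPM in bulk brain. The spread was small in both groups, and the mean fell 1.67-fold (log2 difference -0.74 ± 0.07 SE, edgeR adjusted p = 1.6e-06). The call held under each scaling tried, with log2 differences of -0.92 to -0.67.

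Dlgap1 encodes GKAP, the founding guanylate kinase-associated protein (ENSMUSG00000003279, chromosome 17, 70276068 to 71128408, plus strand). Its microglia levels were 0.317, 1.47, 1.15, 0.358 and 1.04 CPM, from 8, 38, 30, 9 and 25 counts. Its bulk brain levels were 293, 329, 434, 455 and 452 CPM. Dlgap1 was thus second only to Dlg4 by CPM in tissue and very low, though counted in every library, in the sorted cells (log2 difference -8.81 ± 0.40 SE, edgeR adjusted p = 1.8e-09). The log2 difference was -8.55 against bulk brain replicates 1 and 2 alone and -9.15 against replicates 3 to 5.

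Dlgap3 encodes SAPAP3, a scaffold known from corticostriatal synapses (ENSMUSG00000042388, chromosome 4, 127062997 to 127130815, plus strand). It stood at 0.675, 1.16, 0.0385, 0.278 and 1.12 CPM in microglia and at 232, 281, 198, 217 and 219 CPM in bulk brain. Microglia replicate 3 held 1 count. Bulk brain replicates 1 and 2 were here the highest of their group (log2 difference -8.45 ± 0.49 SE, edgeR adjusted p = 1.3e-08).

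Dlgap2, a further synaptic member, was the scarcest of the 9 genes by CPM (ENSMUSG00000047495, chromosome 8, 14145865 to 14897680, plus strand). Microglia held 0, 14, 2, 1 and 0 counts, 17 in all, of which replicate 2 gave 14. Bulk brain stood at 17.7, 11.3, 49.2, 55.2 and 52.8 CPM. The log2 difference was -8.07 ± 0.81 (SE; edgeR adjusted p = 1.9e-06). It was -10.08 without microglia replicate 2, -6.81 against bulk brain replicates 1 and 2 alone and -8.71 against replicates 3 to 5, so that its size rests on few libraries while its direction held in each.

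The residues were set beside those of neuron markers, to see how much of a neuronal transcript remained in the sorted samples. The 15 neuron markers stood at 0.0394% to 11.03% of their bulk brain level in microglia, with a median of 0.137%. The highest was Elavl4, and the next was at 1.01%. Dlg1, Dlg3 and Dlgap4 lay above all 15. Dlg4 and Dlg5 lay above 14 of them, and the residues of Dlg2, Dlgap1, Dlgap2 and Dlgap3 lay within the range of these 14.

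The summed neuron markers were at 34.7, 54.1, 29.5, 28.1 and 48.1 CPM in microglia replicates 1 to 5, and at 9070 to 10458 CPM in bulk brain. All but Dlg4 and Dlg5 of the 9 genes were highest in microglia replicate 2, where the neuron sum was also highest. Dlg2 and Dlg3 followed the order of the neuron sum in all 5 libraries, although Dlg3 kept far more of its bulk brain level. Dlgap2 did not follow it, with 0 counts in replicate 5, which had the next highest neuron sum, nor did Dlgap1, whose level in replicate 3 was next to its highest. The coefficient of variation over these libraries was 2.21% for Dlgap4, 6.02% for Dlg1, 6.76% for Dlg4, 14.7% for Dlg3 and 32.5% for Dlg5. It was 58.7% for Dlgap1, 76.3% for Dlgap3, 103% for Dlg2 and 176% for Dlgap2. Dlg5 was highest in replicates 1 and 2, as were the summed endothelial and mural markers. These stood at 56.4, 49.6, 33.8, 32.4 and 32.0 CPM in replicates 1 to 5. Their order in replicates 4 and 5 differed from that of Dlg5. The part of left-over RNA of neurons or of other cells in these levels was not tested. Without replicate 2 the residue of Dlg2 was 0.166% in place of 0.297%, and that of Dlgap2 was 0.0783% in place of 0.354%.

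**Figure D2:**
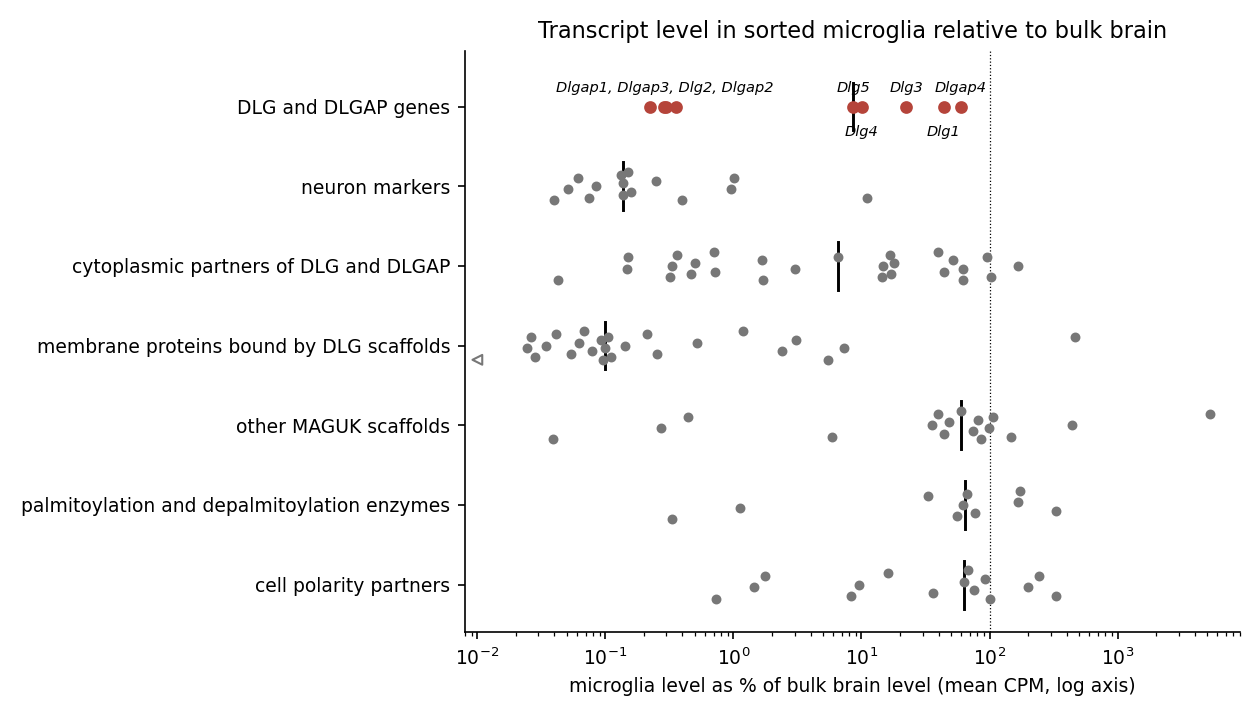
Microglia level as a percentage of the bulk brain level (mean CPM, log axis) for each gene of 7 lists, with list medians as black bars, equality as a dotted line and an open triangle for the gene with 0 counts in microglia. The DLG and DLGAP genes fall into 4 at 0.221% to 0.354% and 5 at 8.61% to 59.9%, and the neuron markers centre on 0.137%.

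Levels were compared between genes per kilobase of the deposited gene length. In microglia Dlgap4 was the most abundant, at 15.2 ± 0.337 CPM per kilobase (SD, n = 5), followed by Dlg1 at 6.69 ± 0.403 and Dlg3 at 6.35 ± 0.934, whose ranges overlapped. Dlg4 followed at 3.74 ± 0.253 and Dlg5 at 0.413 ± 0.134 CPM per kilobase. The other 4 stood at 0.0214 to 0.145 CPM per kilobase, and each overlapped its neighbour in the order. In bulk brain the order began with Dlgap3 at 50.7 ± 6.91 and Dlg4 at 37.2 ± 1.14 CPM per kilobase. Dlg3, Dlgap4, Dlgap1, Dlg2 and Dlg1 followed, each overlapping the next, and Dlgap2 and Dlg5 came last at 6.06 ± 3.41 and 4.797 ± 1.93. The gene that led in tissue, Dlgap3, was thus sixth in microglia.

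The make-up of each family differed accordingly. Of the summed DLG level per kilobase, Dlg1 took 38.9% ± 2.36 (SD, n = 5) in microglia against 14.8% ± 0.298 (n = 5) in tissue. Dlg3 took 36.7% ± 3.02 and 27.6% ± 1.98, and Dlg4 took 21.7% ± 1.38 and 36.6% ± 5.11. Dlg2 took 0.289% ± 0.277 and 16.5% ± 5.53, with 0.171% in microglia without replicate 2 and 20.5% in bulk brain replicates 3 to 5. In neither group was Dlg5 above 5.56% in any library. Dlgap4 took 97.3% to 99.4% of the DLGAP level in the microglia libraries and 23.3% to 25.95% in bulk brain, where Dlgap3 took 43.5% to 57.1%. The summed DLG level was 17.2 ± 1.37 against 103 ± 14.2 CPM per kilobase, and the summed DLGAP level 15.5 ± 0.431 against 104 ± 5.96. These shares rest on the deposited gene length, which need not match the isoforms in use.

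**Figure D3:**
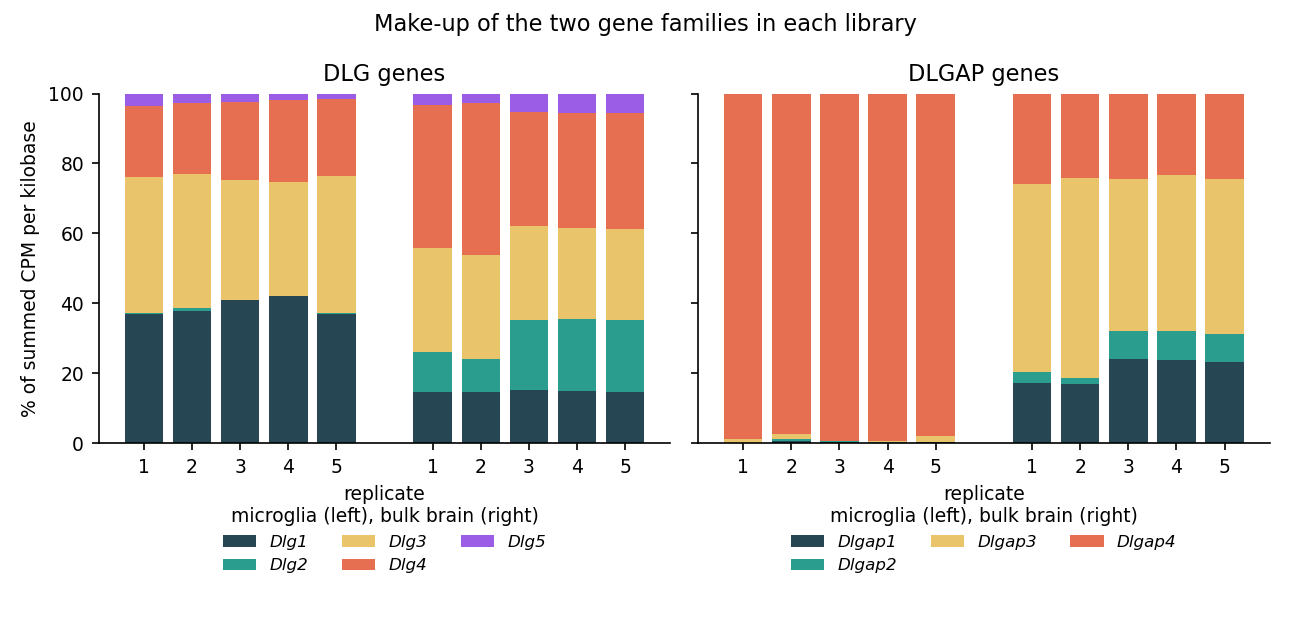
Share of each gene in the summed CPM per kilobase of the 5 DLG genes (left) and the 4 DLGAP genes (right), one stacked bar per library adding to 100%. Dlgap4 fills nearly the whole DLGAP bar in all 5 microglia libraries, and Dlg2 takes 16.5% of the DLG bars on average in bulk brain against 0.289% in microglia.

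Whether paralogs differed between the groups by different amounts was tested on 4 ratios within libraries, which do not depend on how libraries are scaled. The log2 ratio of Dlg1 to Dlg4 had a mean of 0.84 ± 0.05 (SD, n = 5) in microglia against -1.30 ± 0.21 (n = 5) in bulk brain, by an exact permutation test that was two-sided (p = 0.0079, and 0.011 adjusted over the 4 ratios). Dlg1 thus outnumbered Dlg4 per kilobase in 5 of 5 microglia libraries and was the scarcer in 5 of 5 bulk brain libraries. The log2 ratio of Dlg4 to Dlg2 was 6.68 ± 1.41 against 1.21 ± 0.74 (n = 5 each; exact p = 0.0079, adjusted p = 0.011), and that of Dlgap4 to Dlgap1 was 8.51 ± 0.99 against 0.24 ± 0.30 (exact p = 0.0079, adjusted p = 0.011). These 3 p-values are the smallest that 5 against 5 samples can give. The log2 ratio of Dlg5 to Dlg3 was -3.98 ± 0.41 against -2.67 ± 0.57 (n = 5 each; exact p = 0.016, adjusted p = 0.016), with 1 bulk brain library, replicate 2 at -3.44, below the highest microglia value of -3.41. The ratios remained past the threshold with bulk brain replicates 3 to 5 alone (adjusted p = 0.036 for each, exact permutation test).

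**Figure D4:**
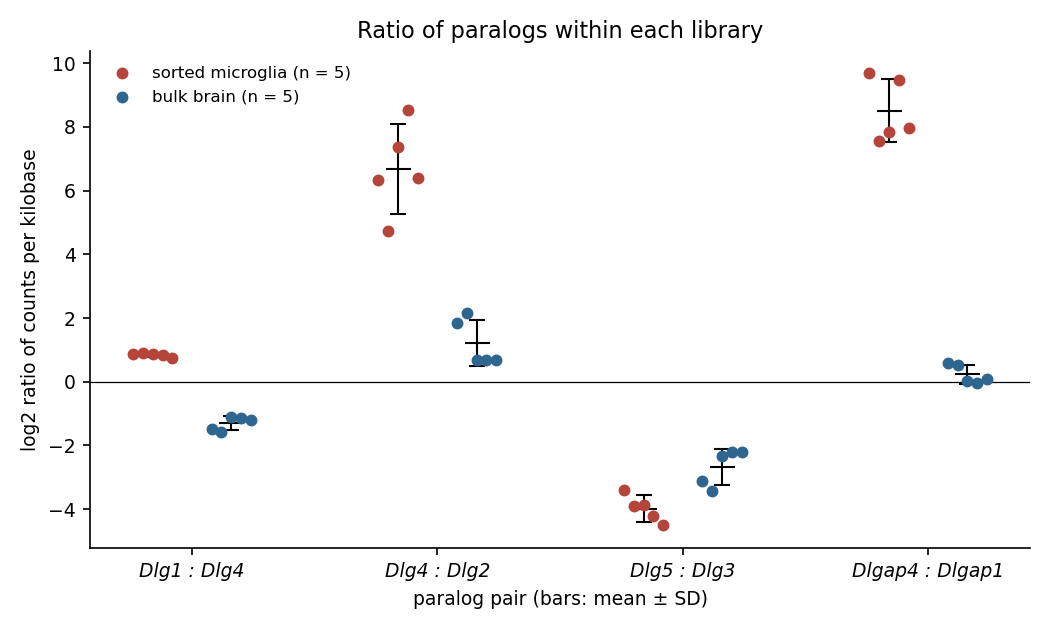
Log2 ratio of counts per kilobase for 4 pairs of paralogs in each library, with mean ± SD as bars. The Dlg1 to Dlg4 ratio lies above 0 in all 5 microglia libraries and below 0 in all 5 bulk brain libraries, and the Dlg5 to Dlg3 ranges touch.

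Among bulk brain libraries the 9 genes did not vary alike. Dlgap2, Dlg2 and Dlg5 were 3.60, 2.50 and 2.27 times as high in replicates 3 to 5 as in replicates 1 and 2 by mean CPM. Dlgap1 and Dlg1 were 1.44 and 1.30 times as high, and Dlg3 1.13 times. Dlg4 and Dlgap4 were level, at 1.00 and 0.993 times, and Dlgap3 was at 0.823 times. The coefficient of variation over the 5 libraries was accordingly 3.06% for Dlg4 and 3.76% for Dlgap4, and 43.6%, 40.3% and 56.3% for Dlg2, Dlg5 and Dlgap2. Summed levels of other lists also separated the 2 sets. Summed membrane proteins bound by DLG scaffolds stood at 2879 to 3140 CPM in replicates 1 and 2 and at 4656 to 4891 CPM in replicates 3 to 5, neuron markers at 9070 to 9071 and 9912 to 10458 CPM, astrocyte markers at 3773 to 4050 and 4944 to 5009 CPM, and oligodendrocyte lineage markers at 7546 to 8088 and 6028 to 6119 CPM. The sums of cytoplasmic partners, other MAGUK genes and polarity genes were likewise lower in replicates 1 and 2, and those of palmitoylation enzymes, microglia markers and endothelial and mural markers overlapped. Their part in the split was not tested.

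**Figure D5:**
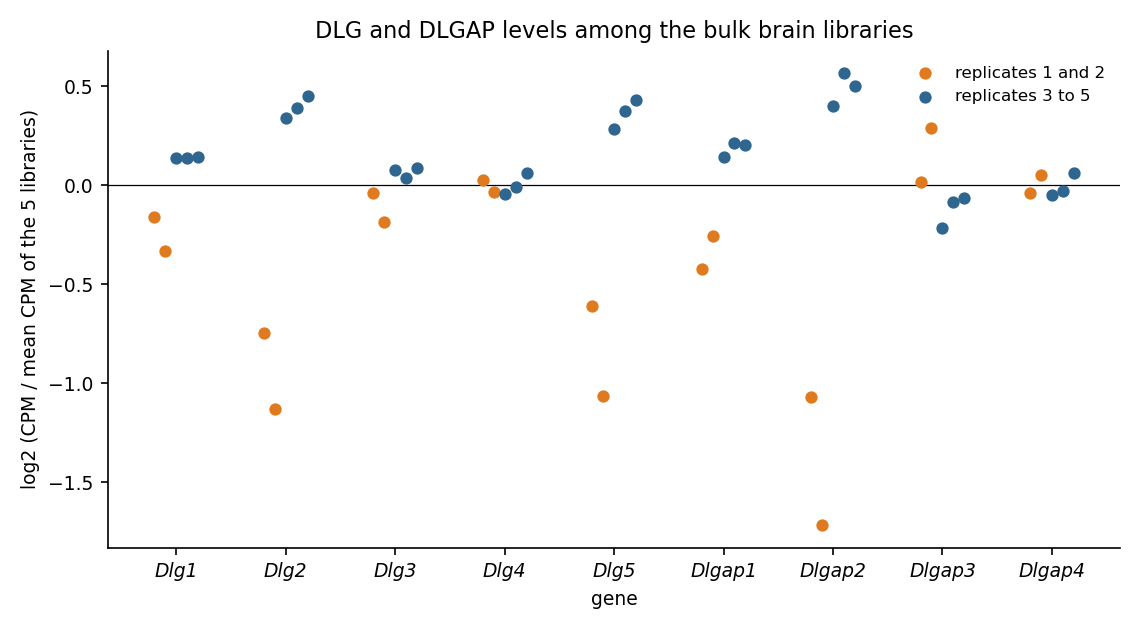
Log2 of the CPM in each bulk brain library over the mean of the 5, for the 9 genes, with replicates 1 and 2 in orange and replicates 3 to 5 in blue. Dlg2, Dlg5 and Dlgap2 separate the 2 sets most, and Dlg4 and Dlgap4 stay close to 0.

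The genes of 5 lists of partners are read against all genes tested, of which 37.2% were higher and 43.9% lower. Those for proteins that DLG scaffolds hold at the membrane were nearly all low in microglia. Of 25 such genes, 24 were lower and 1 was higher (edgeR quasi-likelihood test), with a median log2 difference of -9.93 against -0.14 over all genes tested and -3.53 over the 9 DLG and DLGAP genes. Grin1, the obligatory NMDA receptor subunit gene, stood at 0.07 CPM against 254 CPM, and Grik2, a kainate receptor gene, had a count of 0 in every microglia library, which makes it at least 3461-fold lower if the group is set to 3 counts in all. Nlgn2, the neuroligin of inhibitory synapses, was at 19.4 ± 1.37 against 266 ± 5.48 CPM, a log2 difference of -3.77 that was near that of Dlg4. The inward rectifier potassium channel gene Kcnj2 was the one that rose, at 79.9 ± 6.86 in microglia and 17.3 ± 4.58 CPM in tissue (log2 difference 2.21 ± 0.18 SE, edgeR adjusted p = 3.1e-07).

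Cytoplasmic partners had a smaller median fall than the membrane proteins. Of 27, 24 fell and 1 rose, and the remaining 2 passed in neither direction (median log2 difference -3.93). The number that fell was 23 against bulk brain replicates 1 and 2 alone and 26 against replicates 3 to 5. The SHANK genes, whose products bind DLGAP proteins, fell to levels of 0.51 to 1.21 CPM in microglia, from 159 to 310 CPM in bulk brain. Homer1, which binds SHANK, stood at 23.2 ± 1.76 against 140 ± 41.4 CPM. Lrrc7, which encodes densin, fell most, to 0.0317 ± 0.0710 against 74.5 ± 44.2 CPM. Kif13b, a kinesin that carries DLG1, was the one that rose, at 121 ± 9.19 in microglia and 72.8 ± 21.96 CPM in tissue (log2 difference 0.73 ± 0.19 SE, edgeR adjusted p = 0.0042).

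Of 17 other MAGUK genes, 16 were tested, of which 3 rose and 8 fell while 5 passed in neither direction (median -0.59), so that the share that fell was near that over all genes. Against bulk brain replicates 3 to 5 alone 11 fell, and 11 also fell when bulk brain replicate 1 or replicate 2 was left out. The tight junction scaffold gene Tjp1 rose to 408 ± 13.7 from 93.3 ± 46.5 CPM, and Cask stood at 122 ± 3.16 against 82.3 ± 17.6 CPM, a call that was lost without bulk brain replicate 1 (edgeR adjusted p = 0.053), leaving 2 genes of the list higher. Mpp3 fell most, with 3 microglia counts against 60.9 ± 4.68 CPM (ratio 2573, 95% counting interval 880 to 12475).

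Enzymes that add or remove palmitate, which anchors PSD-95 among other proteins, moved both ways: of 10, 3 were higher, near the share over all genes, and 7 lower (median -0.64). Zdhhc2, a palmitoyltransferase of PSD-95, fell to 0.206 ± 0.153 from 62.4 ± 3.54 CPM. Abhd17c, of a family of depalmitoylating enzymes, rose to 89.9 ± 7.22 from 27.0 ± 5.73 CPM (log2 difference 1.74). Of 15 genes of cell polarity, the other setting in which DLG proteins act, 3 rose and 9 fell while 3 passed in neither direction (median -0.65). Against bulk brain replicates 3 to 5 alone 11 fell, and against replicates 1 and 2 alone 4 rose. Of these genes, 1 was lower against the first set (log2 difference -1.24) and higher against the other (0.33). Scrib, the partner of DLG in basolateral polarity, rose to 117 ± 1.85 from 59.2 ± 4.24 CPM, and Erbin rose to 303 ± 23.7 from 125 ± 38.3 CPM (log2 difference 1.27). Pard6b fell most, to 0.0416 ± 0.0931 from 5.68 ± 0.482 CPM.

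Profiles most like those of the 9 genes were sought among 15029 coding genes, by the root-mean-square difference of log2 CPM over the 10 libraries, each centred on its own mean. Ap1ar, Elmo2 and Add1 came closest to Dlgap4 (0.0444 to 0.0649), and Camkk2, Dync1li2 and Usp14 to Dlg1 (0.0733 to 0.0777). Speg, Stx3 and Nkrf came closest to Dlg3 (0.0855 to 0.112), and Arhgap32, Dnah9 and Itih5 to Dlg5 (0.151 to 0.219). Among the nearest to Dlg4 were Vopp1 (0.103) and Zbtb8b (0.108), of which the latter had 0 counts in microglia and 4.48 CPM in bulk brain, so that the added constant of 0.5 CPM set its profile. Kif1a, Tmod2 and Iqsec3 came closest to Dlg2 (0.237 to 0.301), Cplx2, Anks1b and Pcsk2 to Dlgap1 (0.213 to 0.276), Nrsn1, Lynx1 and Bcan to Dlgap3 (0.198 to 0.278), and Ryr3, D130043K22Rik and Slit3 to Dlgap2 (0.260 to 0.288). Likeness here means mostly the size of the group difference and the bulk brain split.

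Mixed counts from other genes were looked for in 2 ways. No coding gene overlapped a member by the deposited spans, and Dlg3, Dlg4 and Dlgap3 had no overlapping gene at all. The 30 noncoding genes within the span of Dlg2 held 41 counts in microglia and 1303 in bulk brain, against 119 and 52480 for Dlg2 itself. The overlapping genes of Dlg1, Dlg5, Dlgap1, Dlgap2 and Dlgap4 held at most 48 counts in microglia and 139 in bulk brain. Of the distinct 50-base stretches in each gene's GENCODE vM21 transcripts, at most 1.10% (Dlg4) also stood in transcripts of another gene on either strand, and 0 in Dlg3, Dlgap2, Dlgap3 and Dlgap4.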

How the data were processed

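Poly-A selected RNA-seq of 5 microglia and 5 bulk brain samples was analysed. The values are raw gene counts, deposited by the authors without normalization in a single table that also gives gene symbols, spans and gene lengths per the file headers. Per the submitters' processing notes, CASAVA, HISAT2 2.2.1 and featureCounts 2.0 were applied with the genome build GRCm39 (mm39); their roles and order are not stated. For the strand setting, the multi-mapping rule and the annotation, the sources used here name none. All 10 value columns were mapped to samples (0 were left over).

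Genes were kept by edgeR's filterByExpr, scaled by TMM and compared by the quasi-likelihood test of edgeR, with group as the only term (edgeR 4.0.16, limma 3.58.1, R 4.3.3) and Benjamini-Hochberg adjustment over all 18969 genes tested, at a threshold of 0.05. The test was also run on simulated data, in which few genes were changed, in both directions, by small folds and with a single spread. That run does not show how the test behaves where most genes differ, as here. CPM used TMM-scaled library totals. Each SE was taken as the log2 difference, without sign, over the square root of F. Paralog ratios used counts plus 0.5 and exact permutation over 252 splits, adjusted over the 4 ratios. Other genes were named by rule: in each of 5 partner lists the largest rise and fall whose higher group reached 5 CPM, the genes overlapping a member, the 3 most like profiles and label checks. Some genes that the rule names are not reported here. Grin1, Nlgn2, Homer1, the SHANK genes, Tjp1, Cask, Scrib, Llgl1, Llgl2 and Elavl4 were picked with their values in view. The members and lists were chosen with earlier results of these data known. Alternatives were other scalings, no filter, DESeq2 1.42.0, a replicate block and leaving out libraries. Other steps ran in Python 3.11.15 (SciPy 1.17.1, pandas 2.3.3, numpy 2.4.6), with plots by matplotlib 3.10.9.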

Additional observations from a re-analysis of the deposited data

Results flagged for a closer look

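Among the 18 groups of 5 libraries (9 genes in microglia and in bulk brain), 2 held a library far from the rest. For any 1 group, chance gives such a library about 1 time in 20 if values follow a normal distribution. Counts this near 0 need not do so. Dlg2 in microglia replicate 2 stood at 2.59 CPM, with the other 4 libraries at 0.159 to 0.832 CPM. Dlgap2 in the same library stood at 0.542 CPM, with the other 4 at 0 to 0.0770 CPM. That library also had the highest summed neuron markers of its group, at 54.1 CPM, and the part of left-over neuronal RNA in these values was not tested.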

How the results depend on the processing

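All 9 log2 differences kept their direction and stayed past the threshold in each of 18 alternatives (162 values), and so did the 4 paralog ratios in each of 12 (48 values). The largest adjusted p was 0.00024 for the log2 differences (Dlgap4 in edgeR's test with the replicate block) and 0.036 for the ratios (exact permutation test). Over all genes tested the log2 differences had a median of -0.14, which became -0.31 with median-of-ratios size factors, -0.33 with library size alone and -0.07 with upper-quartile scaling, and residues shifted with it. With median-of-ratios size factors, library size alone and upper-quartile scaling the residue of Dlgap4 was 53.3%, 52.7% and 62.9%. With the first 2 of these it was 38.9% and 38.6% for Dlg1, and 8.94% and 8.85% for Dlg4. Against bulk brain replicates 3 to 5 alone it was 39.8% for Dlg1. The other 118 of 126 residues and all 99 family shares moved by less than the spread between replicates, a spread that microglia replicate 2 itself widens for Dlg2 and Dlgap2: without it their shares were 0.171% in place of 0.289% and 0.0313% in place of 0.134%. Over all genes, 7048 were higher and 8320 lower, and across alternatives 6398 to 7685 and 8037 to 12197. The number of other MAGUK genes called lower was 8. It was 11 with median-of-ratios size factors, with library size alone, with no low-count filter or against bulk brain replicates 3 to 5. It was also 11 without bulk brain replicate 1 or without bulk brain replicate 2, and 9 without microglia replicate 1. With DESeq2, which was also run without the filter, it was 12. Polarity genes called lower ranged from 9 to 11 and higher from 3 to 4. With the replicate number as a block, 6858 genes were higher and 8037 lower, and no call among the 9 genes changed. Same-numbered samples did not deviate together (correlations of -0.021 to 0.0101), and 0 microglia samples correlated best with their own number. Whether same-numbered samples share an animal stays unknown, as sorted cells and tissue of an animal need not deviate alike. With few counts in microglia, the levels of Dlg2, Dlgap1, Dlgap2 and Dlgap3 there are imprecise.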

Other observations

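Dlgap5, which shares the family name but encodes a mitotic spindle protein, was not among the 9 genes and was looked at after their values were seen. It was the one DLGAP gene that was higher in microglia, at 2.54, 1.47, 0.539, 1.35 and 0.832 CPM in replicates 1 to 5, against 0.109, 0.432, 0.182, 0.0890 and 0.110 CPM in bulk brain. The groups did not overlap (log2 difference 2.84 ± 0.55 SE, edgeR adjusted p = 0.00049), on 170 counts in microglia and 31 in bulk brain.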
